A study of Mus musculus with 12 samples.

Results

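Gask1a, Sytl5, Vtcn1, Serpina12 and Etnppl, 5 genes that encode no enzyme of fatty acid synthesis, were followed in mouse liver across 4 groups of mice that differed in the corepressor NCoR and in thyroid state. They were found as the transcript clusters (the probe groups that an array summarises to 1 value) whose platform symbol equals one of these names, which gave 6 clusters of the 5 genes among 21789 clusters with exactly 1 gene symbol (19938 genes). Sytl5 had 2 clusters, 10598603 and 10603573, here called cluster 1 and cluster 2, and the others had 1 each: 10590438 for Gask1a, 10494761 for Vtcn1, 10402428 for Serpina12 and 10496077 for Etnppl. The genes had been picked on these same arrays: Gask1a, Sytl5 and Vtcn1 because they were higher in mutants of both thyroid states, Serpina12 because it was higher in euthyroid mutants and Etnppl because it was lower there. No numerical limit is stated for that choice. The differences that chose a gene are therefore given as values without a test.

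Total liver RNA was hybridised to Affymetrix mouse Gene 1.0 ST arrays, with 1 array per sample and 3 samples in each group. Replicates 5, 6 and 7 were hypothyroid mutants and 17, 18 and 20 hypothyroid controls. Replicates 2, 3 and 4 were euthyroid mutants and 13, 14 and 15 euthyroid controls. Mutant here means L-NCoR∆ID, a mouse whose liver NCoR lacks the domains through which it binds nuclear receptors such as the thyroid hormone receptor. Not given in the sources used here are the strain, sex and age of the mice, the driver that restricts the mutation to liver, the genotype of the controls beyond that word and the way hypothyroidism was produced. Nor do the labels state that each sample is a separate mouse, so the p-values measure the spread between these samples.

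The thyroid hormone receptor sits on its target genes with or without hormone. Without hormone it holds corepressors such as NCoR, which recruit histone deacetylase and keep many induced genes low, and hormone exchanges them for coactivators. The 5 genes have unrelated products. Sytl5 is a synaptotagmin-like protein, a family whose members bind the small GTPase Rab27 and act in vesicle traffic. Vtcn1, also called B7-H4, is a membrane protein of the B7 family that inhibits T cells. Gask1a is a Golgi-associated protein of a kinase-like family. Serpina12, also called vaspin, is a secreted serpin that was described in visceral fat and inhibits the protease Klk7. Etnppl is an enzyme that breaks down phosphoethanolamine, the head group precursor of phosphatidylethanolamine.

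Array medians lay between 4.16 and 4.32 on the log2 scale. Of the hepatocyte markers 9 of 10 were measured, and their mean log2 level was 12.2 to 12.4 on all arrays. Dio1, the deiodinase gene that thyroid hormone induces, averaged 3.25 in hypothyroid mutants and 3.23 in hypothyroid controls, against 9.62 in euthyroid mutants and 8.57 in euthyroid controls (limma adjusted p = 4.41e-12 for hypothyroid against euthyroid, mean of both genotypes), so the labelled thyroid states stood apart on this gene. Of 5 such check genes 2 were called lower, Dio1 and Gpd2 (-1.13, limma adjusted p = 0.000336), as 1.87% of all clusters were. The other 3 were not called: Thrsp (-0.68, limma adjusted p = 0.0698), Me1 (0.13, limma adjusted p = 0.623) and Klf9 (0.01, limma adjusted p = 0.965). Within an array the log2 values had an SD over clusters of 2.32 to 2.35 in hypothyroid mutants, 2.29 to 2.3 in hypothyroid controls, 2.26 to 2.31 in euthyroid mutants and 2.22 to 2.28 in euthyroid controls. No cluster was named Ncor1, so Ncor1 was not analysed here.

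Promoter windows of all 5 genes, 250 bases before to 50 after an annotated start, were read from RefSeq sequence of build GRCm38.p6. The only Sytl5 window, chrX:9885371-9885670, lay inside the annotated gene, which begins at base 9747622. The sequence around that first base of Sytl5 was therefore not searched. The half-site AGGTCA, the letters that thyroid hormone receptor and related receptors bind, was searched on both strands and stood in windows of 2 of the 5 genes, Vtcn1 and Etnppl. It stood in 16.3% of all 32851 windows of that length. The Vtcn1 half-site began 129 bases before the start, on the strand of the gene. In Etnppl it lay on the opposite strand (read as TGACCT) and began 8 bases after the second of 2 annotated starts. The windows of Vtcn1, Etnppl and, as a gene without a match, Serpina12 are shown 5′ to 3′ on the strand of the gene, with half-sites in capitals.

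Vtcn1, chr3:100825209-100825508, plus strand: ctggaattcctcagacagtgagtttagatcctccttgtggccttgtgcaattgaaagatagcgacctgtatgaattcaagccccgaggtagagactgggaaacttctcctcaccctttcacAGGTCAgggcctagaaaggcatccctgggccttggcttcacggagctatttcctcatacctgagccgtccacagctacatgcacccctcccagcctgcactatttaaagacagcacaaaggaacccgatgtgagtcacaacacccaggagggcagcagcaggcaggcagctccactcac
Etnppl, chr3:130617325-130617624, plus strand: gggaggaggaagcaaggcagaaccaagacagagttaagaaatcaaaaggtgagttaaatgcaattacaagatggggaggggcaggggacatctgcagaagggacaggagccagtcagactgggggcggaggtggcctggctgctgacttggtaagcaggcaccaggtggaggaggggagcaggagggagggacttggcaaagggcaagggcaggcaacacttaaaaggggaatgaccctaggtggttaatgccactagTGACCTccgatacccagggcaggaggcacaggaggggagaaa
Serpina12, chr12:104044394-104044693, minus strand: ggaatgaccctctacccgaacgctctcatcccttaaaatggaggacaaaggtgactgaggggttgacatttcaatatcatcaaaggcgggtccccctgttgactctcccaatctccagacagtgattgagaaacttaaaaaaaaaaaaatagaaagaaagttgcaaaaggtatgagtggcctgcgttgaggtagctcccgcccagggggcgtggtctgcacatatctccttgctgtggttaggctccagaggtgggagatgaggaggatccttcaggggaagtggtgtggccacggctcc
None of the 7 windows of the 5 genes held the direct repeats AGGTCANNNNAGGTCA or AGGTCANAGGTCA, which stood in 0.0152% and 0.0396% of all windows, or the E-box CACGTG, which stood in 7.15%. A match is a description of the letters, and a missing match says nothing about a factor outside these windows.

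Sytl5 was higher in mutants of both thyroid states, and it was also higher in hypothyroid than in euthyroid mice of both genotypes. In cluster 1 the log2 signal was 5.43, 5.59 and 5.34 in hypothyroid mutants, against 4.15, 4.10 and 4.09 in hypothyroid controls. It was 4.29, 4.41 and 4.71 in euthyroid mutants, against 3.30, 3.24 and 3.46 in euthyroid controls. Every mutant thus lay above every control of its thyroid state, as 12.4% of all clusters did in hypothyroid and 5.05% in euthyroid mice, and hypothyroid mutants lay highest of all. These shares are background only, since the mutant difference chose the gene. Cluster 2 had the same order, with 6.07, 6.10 and 6.01 in hypothyroid mutants, 4.82, 5.17 and 4.90 in hypothyroid controls, 5.41, 5.26 and 5.36 in euthyroid mutants and 4.16, 3.80 and 4.24 in euthyroid controls. The means of hypothyroid controls (cluster 1, 4.11 ± 0.0325) and euthyroid mutants (4.47 ± 0.218, SD, n = 3 each) were neighbours in the order, and their arrays did not overlap in either cluster. All controls in cluster 1 and the euthyroid controls in cluster 2 lay below the median of their own array. Without a detection call, whether the probe groups were above background there is not known.

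The mutant difference that chose Sytl5 was 1.34 ± 0.134 (SE) in hypothyroid and 1.14 ± 0.134 in euthyroid mice for cluster 1, a 2.54-fold and a 2.2-fold excess. For cluster 2 it was 1.10 ± 0.14 and 1.28 ± 0.14, so the clusters put the larger of the 2 differences in opposite thyroid states. The stated choice does not name the thyroid difference, but whether it played a part is not known. Averaged over genotypes, which makes it independent of both mutant differences, hypothyroid minus euthyroid was 0.88 ± 0.095 in cluster 1 (limma adjusted p = 6.8e-05) and 0.81 ± 0.0993 in cluster 2 (limma adjusted p = 0.000209). Sytl5 rose 1.84-fold and 1.75-fold by these values. In cluster 1 the thyroid difference was 0.98 ± 0.134 in mutants and 0.78 ± 0.134 in controls, and in cluster 2 it was 0.72 ± 0.14 and 0.89 ± 0.14. Hypothyroid arrays did not overlap with euthyroid ones within either genotype, which held in the higher direction for 14.6% of all clusters in mutants and 8.78% in controls. In liver RNA a change in the number of cells that hold a transcript and a change in RNA per cell cannot be told apart, for this gene and those that follow.

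**Figure D1:**
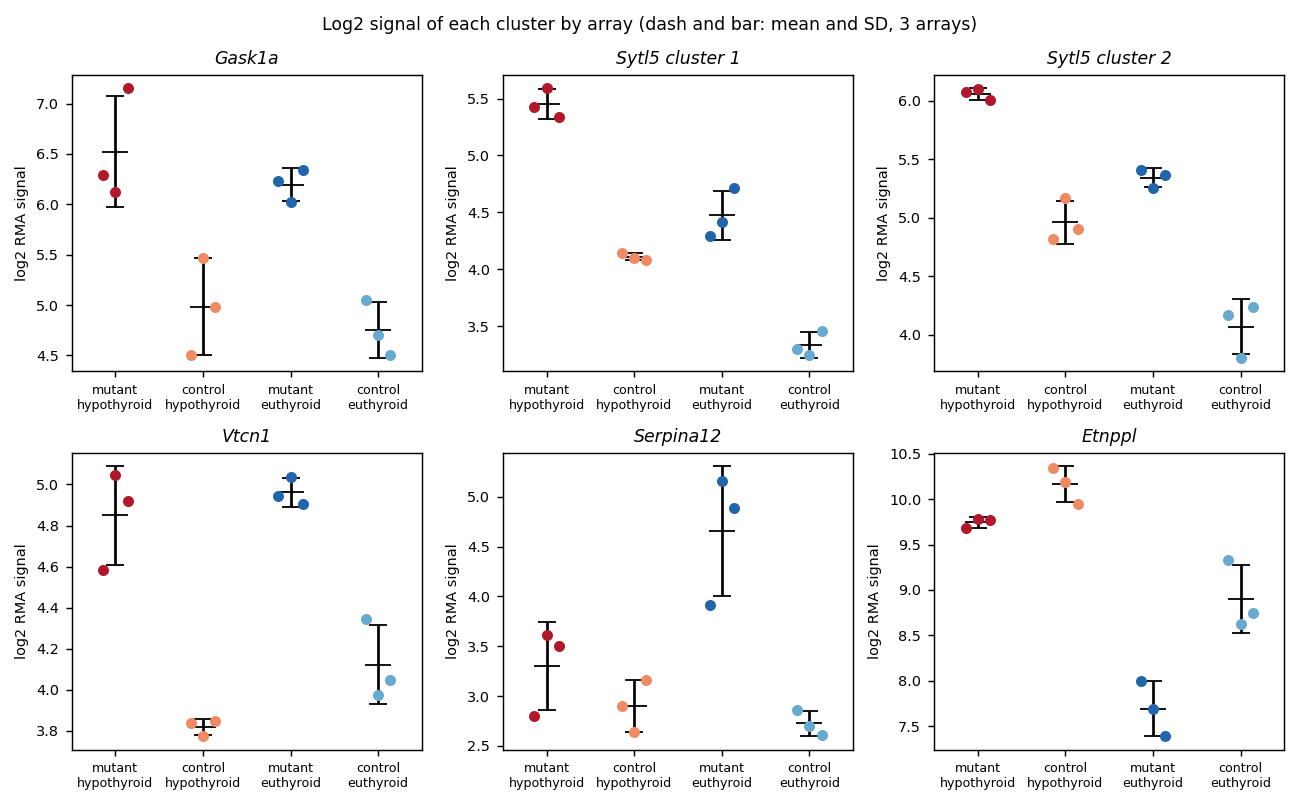
Log2 RMA signal of the 6 clusters (vertical axes, ranges differing between panels) in the 4 groups; each point is 1 array, and dash and bar give mean and SD of 3 arrays. Sytl5 has 4 separate levels, with hypothyroid mutants highest at 5.34 to 5.59 in cluster 1, while Etnppl is lowest in euthyroid mutants at 7.39 to 8.0.

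Of 21789 clusters, 6.04% were called (limma adjusted p under 0.05) in hypothyroid against euthyroid mice as the mean of both genotypes, 910 higher (4.18%) and 407 lower (1.87%). The split was 548 and 484 after quantile normalization, and 50 and 131 with the array SD as a covariate. Of the 6 clusters, 3 were called, both of Sytl5 and that of Etnppl, all higher. Within each genotype array SD was larger in hypothyroid than in euthyroid mice, while euthyroid mutant replicate 3 (2.31) lay above the hypothyroid controls. Array SD thus partly followed the groups, and its part cannot be fully told apart from theirs. With it as a covariate the difference was 0.90 ± 0.147 for Sytl5 cluster 1 (limma adjusted p = 0.00831). It was 0.71 ± 0.15 for cluster 2 (limma adjusted p = 0.0464) and 1.34 ± 0.183 for Etnppl (limma adjusted p = 0.00263).

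Of 16 measured genes for synaptotagmin-like proteins, Rab27 and other exocytosis partners, 0 were called in mutants against controls in either thyroid state (0.262% of all clusters in hypothyroid and 0.129% in euthyroid mice). Their median mutant difference was -0.16 in hypothyroid mice and 0.02 in euthyroid mice, against -0.02 and -0.003 over all genes. The largest differences were those of Sytl1 in hypothyroid mice (-0.59 ± 0.153, limma adjusted p = 0.177) and Rab3b in euthyroid mice (0.31 ± 0.139, limma adjusted p = 0.602). In the thyroid comparison 1 of 16 was called, Sytl1 (0.41 ± 0.108, limma adjusted p = 0.0367), against 6.04% of all clusters. Leaving out single arrays kept this call in 5 of 12 fits.

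Gask1a was higher in mutants of both thyroid states, with more spread between arrays than Sytl5. Its log2 signal was 6.30, 6.12 and 7.15 in hypothyroid mutants, against 4.51, 5.47 and 4.98 in hypothyroid controls. Euthyroid mutants had 6.23, 6.02 and 6.34, against 5.05, 4.70 and 4.50 in euthyroid controls. The lowest mutant lay above the highest control in both states, as for 12.4% of all clusters in hypothyroid and 5.05% in euthyroid mice. The hypothyroid groups were spread more widely (SD 0.553 and 0.48) than the euthyroid ones (SD 0.161 and 0.275). The mutant difference was 1.54 ± 0.261 in hypothyroid mice, a 2.91-fold excess, and 1.45 ± 0.261 in euthyroid mice, a 2.72-fold excess. Without hypothyroid mutant replicate 7, the highest array, the difference in hypothyroid mice was 1.22.

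For Gask1a the thyroid difference did not pass the test. Averaged over genotypes, hypothyroid minus euthyroid was 0.28 ± 0.185 (95% interval -0.11 to 0.68, limma adjusted p = 0.359). The interval leaves room for a rise of up to 0.68 on the log2 scale. The groups overlapped in mutants and in controls.

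The cluster whose profile lay nearest to that of Gask1a belonged to Me1, malic enzyme, which supplies NADPH for fatty acid synthesis. Likeness was measured as the root mean square difference of the log2 values over the 12 arrays, each profile centred on its own mean. It was 0.191 for 1 Me1 cluster and 0.21 for the other, followed by Acaca, acetyl-CoA carboxylase (0.252), while Gask1a itself deviated from its mean by 0.826. Part of this likeness lies in the group differences that chose the gene. Within groups, after each group's mean was taken off, Gask1a deviated by 0.326 and differed from the nearest Me1 cluster by 0.145. The order of the 3 arrays was the same for both genes in 4 of 4 groups, and it was the same in 3 of 4 for the other Me1 cluster and in 1 of 4 for Acaca. The nearest Me1 cluster averaged 10.78 in hypothyroid mutants, 9.06 in hypothyroid controls, 10.60 in euthyroid mutants and 8.93 in euthyroid controls. Among all clusters these genes were picked as the nearest, partly on the same within-group values, so the likeness is a description. How many of all clusters share the array order of Gask1a was not counted. For the other 4 genes the nearest profiles gave 15 pairs, which had the same order of arrays in 0 to 2 of 4 groups. In 11 of these 15 pairs the within-group difference was larger than the within-group deviation of the gene itself.

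Of 12 genes for Golgi kinase-like proteins and related families, 0 were called in euthyroid mutants, against 0.129% of all clusters. In hypothyroid mutants 1 was called, Pkdcc, which was lower (-0.70 ± 0.135, limma adjusted p = 0.0485), as 0.0459% of all clusters were. Pkdcc encodes a secreted tyrosine kinase. Its call was kept in 3 of 12 fits that left out 1 array. The median over the 12 genes was -0.02 in hypothyroid and -0.02 in euthyroid mice, and Dipk1a had the largest positive differences (0.73 ± 0.177 in hypothyroid mice, limma adjusted p = 0.143, and 0.47 ± 0.177 in euthyroid mice, limma adjusted p = 0.563).

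Vtcn1 was higher in mutants of both thyroid states with a narrow spread. Its log2 signal was 4.58, 5.04 and 4.92 in hypothyroid mutants, against 3.84, 3.77 and 3.85 in hypothyroid controls. It was 4.94, 5.04 and 4.90 in euthyroid mutants, against 4.34, 3.98 and 4.05 in euthyroid controls. The mutants thus held nearly the same level in both thyroid states, and hypothyroid controls were the lowest group. The hypothyroid controls and euthyroid controls 14 and 15 lay below the median of their own array. Without a detection call, whether the probe group was above background there is not known. The mutant difference was 1.03 ± 0.142 in hypothyroid mice, a 2.04-fold excess, and 0.84 ± 0.142 in euthyroid mice, a 1.79-fold excess. With the array SD as a covariate the difference in hypothyroid mice was 0.79 ± 0.151.

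Hypothyroid minus euthyroid averaged -0.21 ± 0.1 for Vtcn1 (95% interval -0.42 to 0.01, limma adjusted p = 0.214), or -0.46 ± 0.13 with the array SD as a covariate (limma adjusted p = 0.171). It was -0.11 ± 0.142 in mutants, whose groups overlapped, and -0.30 ± 0.142 in controls, where each hypothyroid array lay below each euthyroid one. Such separation in the lower direction was seen for 7.88% of all clusters in controls. The nearest profiles were those of Bst2, an interferon-induced membrane protein (root mean square difference 0.174, against 0.498 for the deviation of Vtcn1 itself), Cyp2c70, a bile acid hydroxylase (0.189), and Mocos (0.208). Bst2 averaged 9.50 in hypothyroid mutants, 8.39 in hypothyroid controls, 9.74 in euthyroid mutants and 8.92 in euthyroid controls.

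Of 15 genes for B7 ligands and CD28 family receptors, 0 were called in any of the 3 comparisons. Over all clusters 0.262% were called in hypothyroid mutants, 0.129% in euthyroid mutants and 6.04% in hypothyroid against euthyroid mice. In euthyroid mutants against controls the largest differences were those of the macrophage receptor Vsig4, also a Kupffer cell marker (1.13 ± 0.4, limma adjusted p = 0.536) and of Cd86 (0.65 ± 0.163, limma adjusted p = 0.223). T cell and NK cell markers (8 measured), B cell markers (3), cholangiocyte markers (5), stellate cell markers (8), endothelial markers (7) and pancreas acinar markers (2) also gave 0 calls in all 3 comparisons. The mean log2 level of the T cell and NK cell list was 3.13 to 3.34 in hypothyroid mutants, 3.28 to 3.33 in hypothyroid controls, 3.26 to 3.41 in euthyroid mutants and 3.28 to 3.54 in euthyroid controls.

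**Figure D2:**
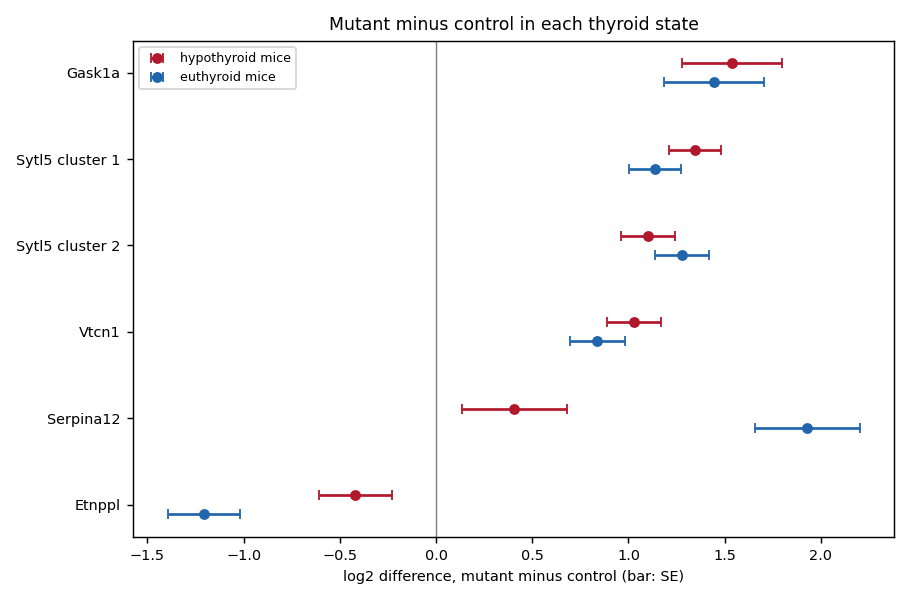
Log2 difference of mutant minus control (horizontal axis, bar: SE of the fit) in hypothyroid and euthyroid mice for the 6 clusters. Gask1a, Sytl5 and Vtcn1 sit between 0.84 and 1.54 in both states, while Serpina12 is at 0.41 in hypothyroid and 1.93 in euthyroid mice and Etnppl at -0.42 and -1.21.

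Serpina12 was highest in euthyroid mutants of the 4 groups. Its log2 signal was 3.92, 5.16 and 4.89 in euthyroid mutants, against 2.86, 2.70 and 2.61 in euthyroid controls. In hypothyroid mice it was 2.80, 3.61 and 3.51 in mutants, against 2.90, 2.64 and 3.16 in controls. The euthyroid mutants did not overlap with any other group, and the other 3 groups overlapped with one another. Of all clusters 11.1% were likewise lower in each hypothyroid than in each euthyroid mutant. In euthyroid mice 5.05% were higher in each mutant than in each control. All values of the other 3 groups lay below the array medians. Euthyroid mutant replicate 2 (3.92) also lay below the median of its own array (4.27). Without a detection call, whether the probe group was above background on these arrays is not known. The difference that chose the gene was 1.93 ± 0.273 in euthyroid mice, a 3.81-fold excess and the 13th highest of 21789 clusters.

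The choice of Serpina12 names euthyroid mice only. A gene also higher in hypothyroid mutants could have been listed with Gask1a, Sytl5 and Vtcn1, so the hypothyroid test may not be independent of the choice. In hypothyroid mice the mutant difference was 0.41 ± 0.273 (95% interval -0.18 to 0.99, limma adjusted p = 0.605), a 1.33-fold excess that did not pass the test, with overlapping groups. With the array SD as a covariate the difference was 0.0692 (limma adjusted p = 0.991). Of all clusters 0.262% were called in this comparison. Hypothyroid minus euthyroid was -1.35 ± 0.273 in mutants and 0.17 ± 0.273 in controls. Both use euthyroid arrays on which the gene was chosen, the mutant ones for their high level, and are given as descriptions. Its mean over genotypes, -0.59 ± 0.193, did not pass the test (limma adjusted p = 0.0822). Without euthyroid mutant replicate 2, which had the lowest value of its group, it was -0.77 with a limma adjusted p of 0.0134. The mutant difference was 1.52 ± 0.386 smaller in hypothyroid than in euthyroid mice on the log2 scale. That contrast was not tested, because the euthyroid difference in it chose the gene.

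The nearest profiles to Serpina12 were those of Mvd, an enzyme of the mevalonate pathway (root mean square difference 0.414, against 0.831 for the deviation of Serpina12 itself), Cd5l (0.461) and Vsig4 (0.476). This likeness includes the group difference that chose the gene. Within groups Serpina12 deviated by 0.343 and differed from Mvd by 0.18, from Cd5l by 0.348 and from Vsig4 by 0.357, with the same order of arrays in 1, 0 and 2 of 4 groups. Cd5l and Vsig4 are markers of Kupffer cells, the macrophages of liver. The list of 12 Kupffer cell and macrophage markers also lay higher in euthyroid mutants: its summed signal on the linear scale was 1021 to 2383 in euthyroid mutants, against 815 to 919 in euthyroid controls. The upper end came from replicate 3, the highest Serpina12 array too: the mean log2 level of the list was 7.25 there, against 6.36 on replicate 2 and 6.19 on replicate 4. Serpina12 had the opposite order on replicates 2 and 4, at 3.92 and 4.89. In hypothyroid mice the summed signal of the list was 560 to 1057 in mutants, against 551 to 613 in controls. In mutants against controls 0 of the 12 markers were called in either thyroid state. Over all clusters 0.262% were called in hypothyroid and 0.129% in euthyroid mice. The marker differences ran from 0.43 to 1.17 in euthyroid mice (median 0.59, against -0.003 over all genes). In hypothyroid mice they ran from -0.01 to 0.63 (median 0.40, against -0.02 over all genes). In hypothyroid against euthyroid mice 4 of 12 (Clec4f, Cd5l, C1qc and Lyz2) were called, all lower, against 1.87% of all clusters called lower. Leaving out single arrays kept the call of Clec4f in 12 of 12 fits, that of Cd5l in 8 and those of C1qc and Lyz2 in 5 each. Without control euthyroid replicate 14 and mutant hypothyroid replicate 7, the arrays of lowest and highest SD, Clec4f alone of the 4 was called. The part of these markers in the Serpina12 result was not tested. Serpina12 was described in fat, and the fat cell genes Adipoq, the adiponectin gene, and Lep, the leptin gene, averaged 2.19 and 2.60 in hypothyroid mutants, 2.24 and 2.68 in hypothyroid controls, 2.15 and 2.76 in euthyroid mutants and 2.23 and 2.89 in euthyroid controls. These values lay below the array medians. Plin1, which coats lipid droplets, averaged 4.09 in hypothyroid mutants, 4.33 in hypothyroid controls, 4.39 in euthyroid mutants and 4.63 in euthyroid controls, and Adipor2, which hepatocytes express too, had group means of 10.55 in hypothyroid mutants, 10.28 in hypothyroid controls, 10.46 in euthyroid mutants and 10.13 in euthyroid controls. Of the 5 measured adipocyte markers 0 were called in any of the 3 comparisons. In hypothyroid against euthyroid mice 6.04% of all clusters were called.

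Of 15 measured serpins of the same clade, 0 were called in mutants against controls in either thyroid state. Over all clusters 0.262% were called in hypothyroid and 0.129% in euthyroid mice. The median difference of the 15 serpins was -0.26 in hypothyroid and -0.16 in euthyroid mice. Serpina1d had a difference of -1.33 ± 0.853 in hypothyroid mice (limma adjusted p = 0.589), where the mutants had an SD of 2.74, and of 2.99 ± 0.853 in euthyroid mice (limma adjusted p = 0.333). It belongs to a family of near-identical copies, so its signal is uncertain. Serpina7, which encodes thyroxine-binding globulin, was called higher in hypothyroid mice (3.80 ± 0.436, limma adjusted p = 0.000116). It was the 1 of 15 called there, against 6.04% of all clusters, and it kept the call in 12 of 12 fits that left out 1 array. Serpina7 averaged 8.43 in hypothyroid mutants, 9.33 in hypothyroid controls, 4.54 in euthyroid mutants and 5.61 in euthyroid controls. Of 8 genes for partners of Serpina12, 0 were called in mutants against controls. Among them Hspa5, a chaperone that also serves as a cell surface partner of the serpin, had a difference of 0.51 ± 0.184 in hypothyroid mice (limma adjusted p = 0.354) and 0.26 ± 0.184 in euthyroid mice (limma adjusted p = 0.732). Dnajc1 was the 1 of 8 called in hypothyroid against euthyroid mice (0.48 ± 0.132, limma adjusted p = 0.0453), against 6.04% of all clusters. It kept the call in 3 of 12 fits that left out 1 array.

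Etnppl moved with both factors and in opposite directions, lower in euthyroid mutants and higher in hypothyroid mice. Its log2 signal was 9.68, 9.78 and 9.78 in hypothyroid mutants, against 10.34, 10.19 and 9.95 in hypothyroid controls. It was 8.0, 7.69 and 7.39 in euthyroid mutants, against 9.33, 8.62 and 8.75 in euthyroid controls. The 4 groups did not overlap: euthyroid mutants were lowest, then euthyroid controls, hypothyroid mutants and hypothyroid controls. The difference that chose the gene was -1.21 ± 0.189 in euthyroid mice, a 2.31-fold deficit and the 8th lowest of 21789 clusters. Mutants lay wholly below controls in euthyroid mice for 5.35% of all clusters.

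In hypothyroid mice Etnppl differed by -0.42 ± 0.189 between mutants and controls (limma adjusted p = 0.462), a 1.34-fold deficit that did not pass the test over all clusters. The choice of Etnppl names euthyroid mice only. Whether hypothyroid values also weighed in it is not known, so this test may not be independent of the choice. The 95% interval of that difference, not adjusted for the number of clusters, was -0.82 to -0.02. Each mutant lay below each control, by at least 0.172, and such separation in the lower direction was seen for 10.2% of all clusters. With the array SD as a covariate the difference was -0.72 ± 0.212 (limma adjusted p = 0.443). The mutant difference was thus smaller in size by 0.79 ± 0.267 on the log2 scale in hypothyroid than in euthyroid mice, which was not tested, since the euthyroid difference chose the gene.

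Etnppl rose in hypothyroid mice. Averaged over genotypes, hypothyroid minus euthyroid was 1.66 ± 0.134 (95% interval 1.37 to 1.94, limma adjusted p = 4.55e-06), a 3.15-fold rise and the 16th highest of 21789 clusters. It was 2.05 ± 0.189 in mutants, a 4.14-fold excess, and 1.26 ± 0.189 in controls, a 2.4-fold excess. Both values share euthyroid arrays with the difference that chose the gene, so neither is independent of the choice. The first shares the mutant arrays and the second the control arrays. Their mean over genotypes is uncorrelated with that difference in this balanced design. Whether thyroid values also weighed in the choice is not known. Hypothyroid arrays lay above all euthyroid ones in both genotypes, as they did for 14.6% of all clusters in mutants and 8.78% in controls.

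**Figure D3:**
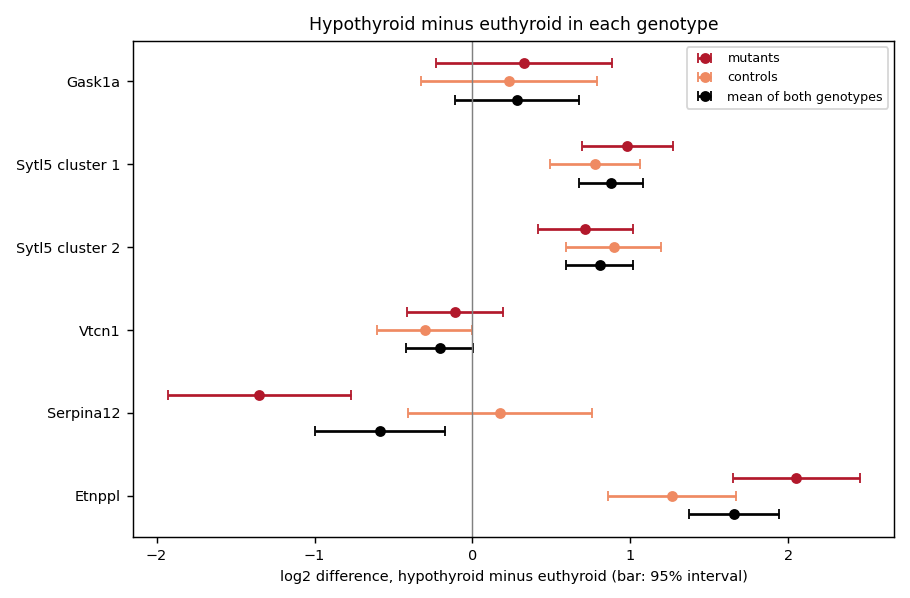
Log2 difference of hypothyroid minus euthyroid (horizontal axis, bar: 95% interval) in mutants, in controls and as the mean of both genotypes for the 6 clusters. Both Sytl5 clusters (0.88 and 0.81) and Etnppl (1.66) have means above 0 in both genotypes, and Serpina12 is at -1.35 in mutants and 0.17 in controls.

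Of 19 measured genes of ethanolamine, choline and phospholipid head group metabolism, 0 were called in mutants against controls in either thyroid state. Over all clusters 0.262% were called in hypothyroid and 0.129% in euthyroid mice. The median difference of the 19 genes was 0.16 in hypothyroid and 0.02 in euthyroid mice. Choline kinase, Chka, had the largest differences, 1.29 ± 0.287 in hypothyroid mice (limma adjusted p = 0.0959) and 0.72 ± 0.287 in euthyroid mice (limma adjusted p = 0.581). In hypothyroid against euthyroid mice 4 of 19 were called, all higher, as Etnppl was, against 4.18% of all clusters called higher. Chpt1, which transfers phosphocholine to diacylglycerol in the last step of phosphatidylcholine synthesis, rose by 1.43 ± 0.107 (limma adjusted p = 2.38e-06). Smaller rises were those of the aminotransferase Agxt2 (0.47 ± 0.106, limma adjusted p = 0.0187), the ethanolamine kinase Etnk1 (0.44 ± 0.113, limma adjusted p = 0.0362) and Phykpl, the phospholyase most like Etnppl (0.32 ± 0.0845, limma adjusted p = 0.0387). Leaving out single arrays kept the call of Chpt1 in 12 of 12 fits, that of Agxt2 in 9, that of Etnk1 in 3 and that of Phykpl in 2. With the array SD as a covariate Chpt1 had a limma adjusted p of 0.00106, while Agxt2 (0.707), Etnk1 (0.901) and Phykpl (0.137) were not called.

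The profile nearest to Etnppl was that of Ociad2 (root mean square difference 0.294, against 0.968 for the deviation of Etnppl itself), followed by the glutathione transferase Gstp1 (0.411) and the sulfatase Arsa (0.427). Within groups Etnppl deviated by 0.214 and differed from Ociad2 by 0.257, from Gstp1 by 0.347 and from Arsa by 0.202, with the same order of arrays in 1, 0 and 2 of 4 groups. Ociad2 averaged 6.88 in hypothyroid mutants, 7.39 in hypothyroid controls, 5.21 in euthyroid mutants and 6.28 in euthyroid controls. For Sytl5 cluster 1 the nearest profile of another gene was that of Pgd, an NADPH-forming enzyme of the pentose phosphate pathway (0.282, against 0.181 between the 2 Sytl5 clusters), followed by Ccdc171 (0.355) and Rdh11 (0.359). For cluster 2 it was that of the retinol dehydrogenase Rdh11 (0.258), followed by Ehhadh (0.285) and the desaturase gene Scd1 (0.291). Within groups all of these differed from Sytl5 by more than it deviated itself, for Pgd by 0.167 against 0.114.

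**Figure D4:**
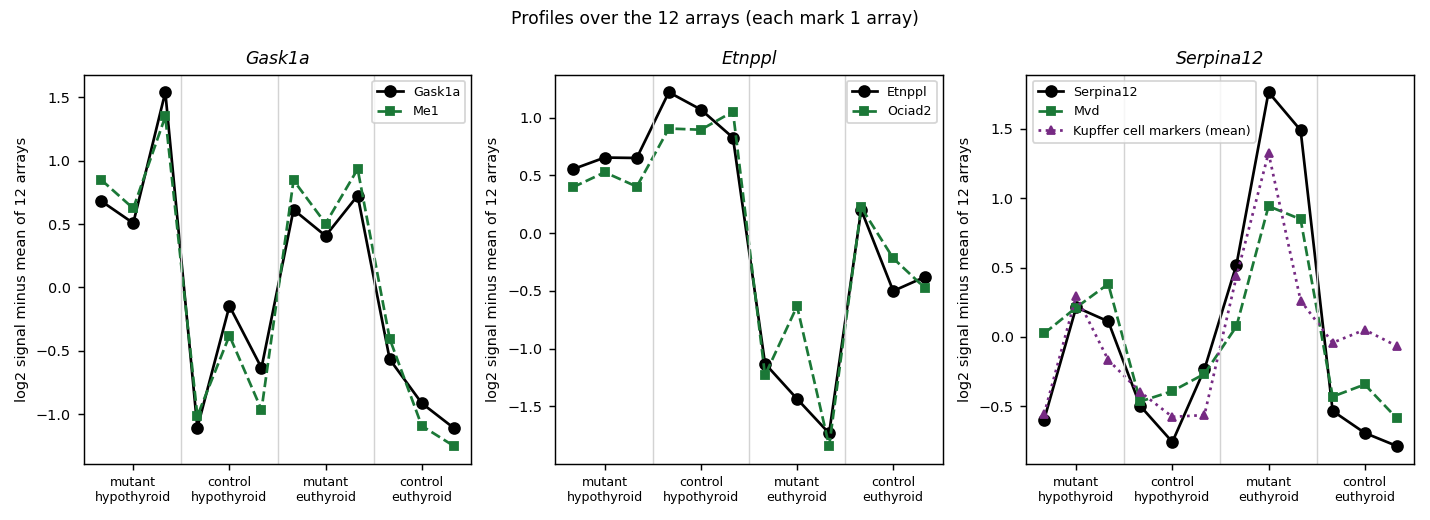
Log2 signal minus the mean of the 12 arrays (vertical axes, ranges differing between panels) for Gask1a, Etnppl and Serpina12 and the nearest profile of each, with each mark 1 array and lines joining marks only to guide the eye; the Serpina12 panel adds the mean of 12 Kupffer cell markers. Gask1a and Me1 order the 3 arrays alike in 4 of 4 groups, Etnppl and Ociad2 in 1, and Serpina12 and Mvd in 1.

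The 2 nearest annotated genes with a cluster on either side of each gene gave 20 neighbours. Of these 0 were called in mutants against controls in either thyroid state. Over all clusters 0.262% were called in hypothyroid and 0.129% in euthyroid mice. The median mutant difference of the 20 neighbours was 0.09 in hypothyroid and 0.11 in euthyroid mice, against -0.02 and 0 over all clusters. Serpina12 lies among other serpin genes, and of its neighbours Serpina11 had -0.21 ± 0.256 in hypothyroid mice (limma adjusted p = 0.776) and -0.82 ± 0.256 in euthyroid mice (limma adjusted p = 0.413), a difference opposite in sign to that of Serpina12. In hypothyroid against euthyroid mice 1 of 20 was called, against 6.04% of all clusters. It was Dynlt3 beside Sytl5 (0.55 ± 0.155, limma adjusted p = 0.049), which kept the call in 2 of 12 fits that left out 1 array. The other neighbour on that side of Sytl5, Cybb, had -0.42 ± 0.245 in that comparison (limma adjusted p = 0.301).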

How the data were processed

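The deposited values are log2 signals made by the authors with RMA, per the submitters' processing notes. The sources used here do not give version, options, feature build or scan date. Batches of arrays could therefore not be examined, and without detection calls it is not known which probe groups lie above background. Gene names come from the platform annotation: 21789 of 35557 clusters had 1 symbol, 1621 several and 12147 none listed. Groups were taken from the sample titles. With all 12 arrays, 4 group means were fitted per cluster in limma 3.58.1 in R 4.3.3 (residual degrees of freedom 8, prior 6.83), with Benjamini-Hochberg adjustment over the 21789 clusters and a threshold of 0.05, and without a filter on level. The fit was tested on simulated data. In lists a gene was represented by its cluster with the highest mean, and medians over all genes use the same clusters. Precision is limited by the number of arrays. The genes, lists and tests were chosen with earlier results of these data known. Named genes are the 5 genes, the called genes of each list (up to 4) or its 2 largest differences, genes that check the thyroid state, the 2 nearest genes on either side, and the 3 nearest profiles. Dipk1a in hypothyroid mice, the neighbours named and, from the marker lists, the adipocyte genes were singled out after their values were seen. Alternatives were quantile normalization, centring on array medians, a filter at the median level, use of every cluster, the array SD as a covariate, a mean-variance trend with robust moderation, fewer arrays and only the compared groups.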

Additional observations from a re-analysis of the deposited data

How the results depend on the processing

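The directions of all 6 clusters in the 3 comparisons were kept under every alternative that gave a value. The calls of Sytl5 and Etnppl in hypothyroid against euthyroid mice were kept under all of them, with differences of 0.83 to 0.94 (cluster 1), 0.74 to 0.85 (cluster 2) and 1.58 to 1.76 (Etnppl) when single arrays were left out. For Serpina12 that range was -0.771 to -0.461, and its call was gained without euthyroid mutant replicate 2 alone. Clusters below the median level (Sytl5 cluster 1, Vtcn1 and Serpina12) had no value under that filter. The counts of called clusters over all genes depended more on the settings. In hypothyroid against euthyroid mice the count of 1317 was 872 with every cluster of the table and 181 with array SD as a covariate. It was 730 without the arrays of lowest and highest SD (control euthyroid replicate 14 and mutant hypothyroid replicate 7). It ran between 680 and 3579 when single arrays were left out: 3579 without euthyroid control 13, and lower without hypothyroid controls 17 (715), 18 (800) or 20 (811), euthyroid mutants 2 (771) or 4 (711) or hypothyroid mutants 6 (882) or 7 (680). In euthyroid mutants against controls the count of 28 (27 higher, 1 lower) was 45 (38 and 7) after quantile normalization and 10 with every cluster. It was 14 without the arrays of lowest and highest SD. Without single arrays it was 6 to 192 (192 without control 13, 8 without control 14 or mutant 2, 6 without mutant 4). With array SD as a covariate it was 28 (19 and 9). In hypothyroid mutants against controls the count of 57 was 33 with every cluster, 9 with array SD as a covariate (5 higher and 4 lower, against 47 and 10), 174 with only the compared groups and 21 to 133 without single arrays (133 and 119 without euthyroid controls 13 and 14, 21 and 34 without hypothyroid controls 17 and 20, 29 and 25 without hypothyroid mutants 6 and 7). The cause was not tested. No paired analysis was possible because the groups share no replicate numbers.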
